A study of Mus musculus with 419 samples.

Results

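The 12 libraries labelled ovary were taken from a set of 419 libraries covering 19 mouse tissues, in which energy-deficient mice were set against energy-sufficient mice as a model of relative energy deficiency in sport. They were chosen by their tissue label alone, and all 12 came from female mice of the inbred strain CBA/CaJ. Control mice were energy-sufficient and Deficient mice were energy-deficient. Each treatment was sampled at zeitgeber times 5 h (ZT05, in the light phase) and 17 h (ZT17, in the dark phase), with 3 libraries in each of the 4 groups, each from a mouse of its own number. How the deficit was produced, the ages of the mice and their stage of the estrous cycle were not given in the sources used here. Poly(A) RNA was counted per gene, and levels are given as CPM, read counts scaled to a common library size. The comparison asked which transcripts differ between the 6 Deficient and the 6 Control libraries, with collection time in the model.

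The ovary makes oocytes and steroid hormones under the control of the pituitary gonadotropins. Granulosa cells surround each oocyte and convert androgen from the theca cells into estrogen, and after ovulation luteal cells make progesterone with the side-chain cleavage enzyme Cyp11a1. The oviduct, whose epithelium holds ciliated cells and secretory cells that release the oviduct glycoprotein Ovgp1, lies against the ovary together with fat and connective tissue. Growth and ovulation are known to slow or stop in mammals when energy is short.

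The tissue label was first checked against the markers of ovarian cells. Cyp11a1 was at 3848 and 6105 CPM in Control ZT05 replicates 2 and 3, at 2620.4 CPM in Deficient ZT05 replicate 3 and at 376 CPM in Control ZT17 replicate 1. In the other 8 libraries it lay between 0.0901 and 2.10 CPM. Hsd3b1, the next enzyme toward progesterone, was at 4863, 2702, 2574 and 435 CPM in those same 4 libraries and at 0 to 17.6 CPM elsewhere. The oocyte growth factor Gdf9 was at 132, 27.1 and 47.7 CPM in the first 3 of them, at 3.93 CPM in Control ZT17 replicate 1, and at 0.202 to 1.10 CPM in the other 8. The gonadotropin receptor Fshr had 0 counts in 7 of the 12 libraries, where a count of 0 allows up to 3 counts, or 0.135 to 0.216 CPM by counting error alone. Summed over whole marker lists, the granulosa list ran from 306 to 4995 CPM in Control and from 181 to 1141 CPM in Deficient libraries, the luteal list from 552 to 19093 CPM and from 401 to 10317 CPM, and the oocyte list from 96.9 to 1292 CPM and from 58.3 to 492 CPM. The first 3 libraries named above, which had over 1000 CPM of Cyp11a1, are called the 3 Cyp11a1-high libraries below, and 2 of them are Control and 1 is Deficient.

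Transcripts that mark the oviduct were present in every library labelled ovary. Ovgp1 ranged from 1245 to 17147 CPM over the 12 libraries, against 3.57 to 88.3 CPM in the uterus libraries of the same mice and 2.64 to 6.80 CPM in their adrenal libraries. Foxj1, the master regulator of motile cilia, ranged from 55.4 to 719 CPM, against 0.311 to 5.60 CPM in the uterus. Summed over the oviduct ciliated cell markers, Control libraries held 413 to 4165 CPM and Deficient libraries 2621 to 6327 CPM. Transcripts of steroid-making cells and oocytes were thus low or undetected in 8 of the 12 libraries that carry the label ovary. Results below are given with all 12 libraries and, for those that lead a paragraph, also without the 3 Cyp11a1-high libraries. Leaving these out leaves Control ZT05 with 1 library, replicate 1. That group then adds no spread of its own, though it counts as much as Control ZT17 in the contrast. Calls and adjusted p-values without the 3 libraries are limited by this. In bulk RNA, fewer cells of a type and less RNA per cell cannot be told apart.

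**Figure D1:**
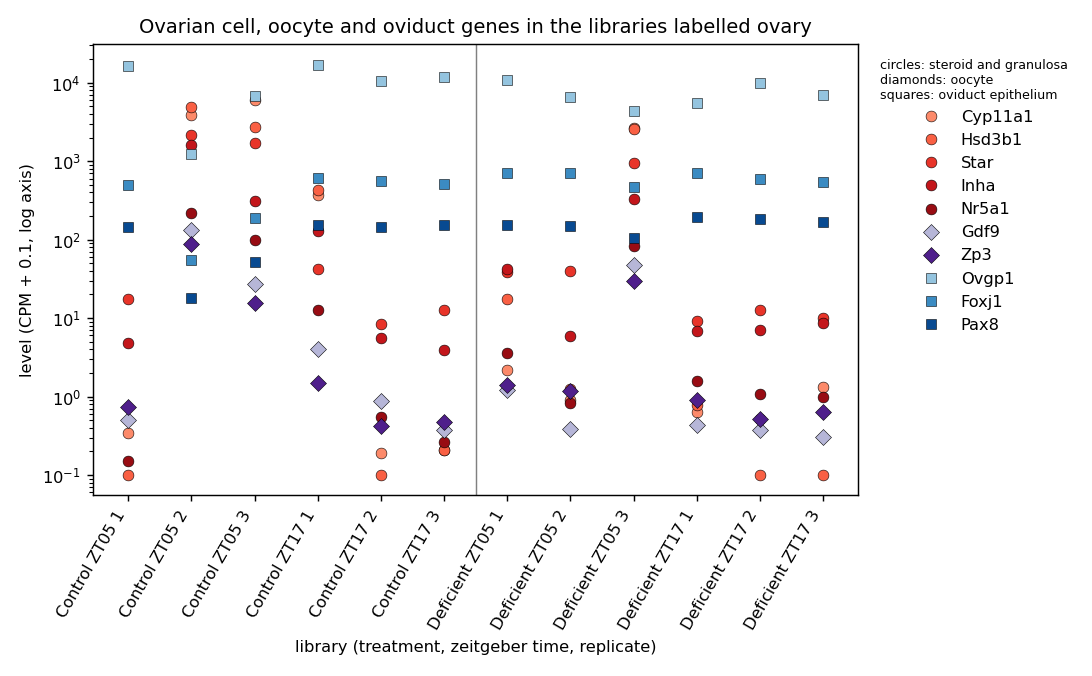
Levels of ovarian and oviduct marker genes (CPM + 0.1, log axis) in each of the 12 libraries, by treatment and collection time. The 3 libraries over 1000 CPM of Cyp11a1 stand apart from the 8 libraries between 0.0901 and 2.10 CPM, while Ovgp1 was above 1000 CPM in every library.

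Library totals were 18682461 to 22675172 counts in Control and 13674988 to 18205702 in Deficient libraries and did not overlap. Mitochondrial transcripts made up 2.32% to 4.11% of counts. The first principal component of the 1000 most variable genes held 74.0% of their variance and separated the 3 Cyp11a1-high libraries from the rest. When every library was thinned to the lowest total, 1799 genes were called in place of 1942.

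Energy deficiency was accompanied by lower transcript levels of collagens and their folding enzymes, endoplasmic reticulum chaperones, lipid-making enzymes, cell division genes and the oxytocin receptor, and by higher levels of a smaller group of genes including Npbwr1, Cyp2a5, Pla2g5 and Cirbp. Of 18637 genes tested by edgeR's quasi-likelihood test, 865 rose (4.64%) and 1077 fell (5.78%) at a Benjamini-Hochberg adjusted p under 0.05, together 10.4%. Without the 3 Cyp11a1-high libraries, 1035 rose (5.28%) and 1554 fell (7.92%) of 19611 tested, together 13.2%. All 1942 genes kept their direction there, and 593 of the rises and 786 of the falls were called in both fits. The fit is sensitive to single libraries: leaving out Deficient ZT17 replicate 1 left 349 genes called and leaving out Control ZT05 replicate 1 gave 4770, with the direction of all 1942 kept in both. Of 112 called genes followed by name, 31 were called whichever library was left out, among them Npbwr1, Pla2g5, Cirbp, Oxtr, Igf1, Col1a1, Col3a1, Serpinh1 and Hspa5, and 81 lost the call when at least 1 library was left out. Over the 12 lists described below without a called rise, 3 of 267 tested members were higher at an unadjusted p under 0.05 in edgeR. Other tools run were DESeq2 and limma voom with sample quality weights, called limma voom throughout. DESeq2 called 2 and limma voom 6 of the 267 higher, and edgeR called 3 without the 3 Cyp11a1-high libraries. The lists were taken for having no called rise in these data, so low counts follow in part from that choice. Some members are in more than 1 list.

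**Figure D2:**
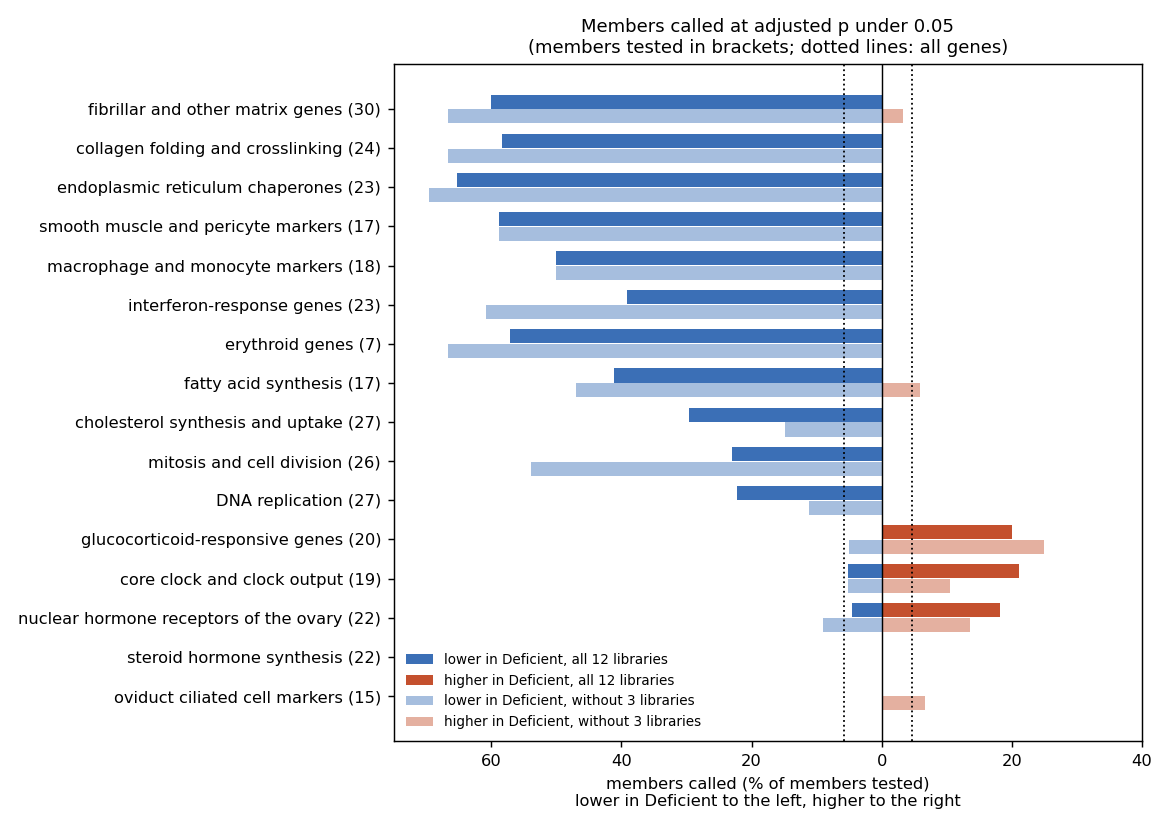
Share of the tested members of each gene list (percent) that fell (bars to the left) or rose (bars to the right) in Deficient libraries, with all 12 libraries (dark) and without the 3 Cyp11a1-high libraries (light). Dotted lines mark the share of all genes called, 5.78% down and 4.64% up. Of the matrix genes 18 of 30 fell, and of the endoplasmic reticulum chaperone list 15 of 23.

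Fibrillar collagens and other proteins of the interstitial matrix were lower in Deficient libraries. Of 30 tested matrix genes, 18 fell and 0 rose, with a median log2 fold change of -1.53 against -0.03 over all genes tested. With 1 library left out, between 10 (without Deficient ZT17 replicate 1) and 19 fell. Col1a1 (GRCm38 chr11:94936224-94953042), a chain of type I collagen, ran from 176 to 554 CPM with a median of 294 CPM in Control libraries and from 19.3 to 94.0 CPM with a median of 40.7 CPM in Deficient libraries. The groups did not overlap, and the mean went from 323 ± 144 CPM (SD, n = 6) to 45.4 ± 25.7 CPM (SD, n = 6). The log2 fold change was -2.91 ± 0.36 (SE, edgeR adjusted p = 0.006). Without the 3 Cyp11a1-high libraries it was -3.19, with an adjusted p of 0.00249 in edgeR.

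Col1a2, the partner chain, had Control medians of 607 CPM and Deficient medians of 112 CPM. Col3a1, the type III chain of soft tissues, ran from 422 to 1538 CPM in Control and from 104 to 345 CPM in Deficient libraries. For both genes every Control library lay above every Deficient one, and their log2 fold changes were -2.39 and -2.19. Col15a1, a collagen that links fibrils to basement membranes, ran from 37.8 to 133 CPM against 4.25 to 30.1 CPM, a log2 fold change of -2.87 ± 0.34 (SE, edgeR adjusted p = 0.00563). Col6a3, of the microfibrillar type VI collagen, fell by 2.43 on the log2 scale, and the small proteoglycan Lum fell by 1.79. In 8 of the 30 genes the groups did not overlap with Control above, where 2.02% of all genes did so. Without the 3 Cyp11a1-high libraries 20 of 30 fell and 1 rose, Tgfbi, which encodes a matrix adhesion protein, at a log2 fold change of 0.86 (edgeR adjusted p = 0.041).

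Markers of the fibroblasts that make matrix were also counted. Of 16 stromal fibroblast markers, 4 fell and 0 rose (8 fell without the 3 libraries), with a median of -0.82, and the summed marker level ran from 3611 to 8317 CPM in Control and from 3551 to 6683 CPM in Deficient libraries. The summed level of the 30 matrix genes ran from 5604 to 11148 CPM and from 2595 to 5417 CPM, with no overlap. The part of stromal cell number in the matrix result was not tested.

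Enzymes that fold, modify and crosslink collagen were also lower. Of 24 tested members, 14 fell and 0 rose, with a median of -1.003, and 16 fell without the 3 libraries. Without Deficient ZT17 replicate 1, 4 fell. Serpinh1, the collagen chaperone HSP47, ran from 218 to 502 CPM with a median of 421 CPM in Control and from 68.0 to 189 CPM with a median of 95.5 CPM in Deficient libraries. The groups did not overlap, and its log2 fold change was -1.97 ± 0.25 (SE, edgeR adjusted p = 0.006). Plod1, a lysyl hydroxylase, went from a mean of 70.1 ± 10.6 CPM (SD, n = 6) to 34.9 ± 4.68 CPM (SD, n = 6), a log2 fold change of -1.01. The prolyl hydroxylase subunit P4ha1 fell by 0.71 on the log2 scale but was not called without the 3 libraries (edgeR adjusted p = 0.133).

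Some basement membrane genes were lower. Of 18 tested, 4 fell (0 without Deficient ZT17 replicate 1, 9 without Control ZT05 replicate 1 or Deficient ZT05 replicate 3), led by Col4a1 (log2 fold change -1.91) and the linker Nid1 (-1.63), and 1 rose, the heparan sulfate proteoglycan Agrn (0.70). The call of Agrn was lost without the 3 libraries (edgeR adjusted p = 0.0561) and in 9 of the 12 fits with 1 library left out. Among 21 matrix proteases and inhibitors 6 fell and 1 rose. Adamts4, an aggrecan-cleaving protease, ran from 3.14 to 39.4 CPM in Control and from 0.524 to 2.58 CPM in Deficient libraries, a log2 fold change of -3.02. Plat, the tissue plasminogen activator, rose from a median of 241 CPM to one of 835 CPM, a log2 fold change of 1.41 ± 0.31 (SE, edgeR adjusted p = 0.0245).

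Chaperones of the endoplasmic reticulum (ER), which fold secreted and membrane proteins, were mostly lower in Deficient libraries. The list counted here also holds other ER-linked genes, among them the transcription factors Atf4, Ddit3 and Xbp1. Of 23 tested members, 15 fell and 0 rose, with a median of -0.77, and 16 fell without the 3 libraries. With 1 library left out, 11 to 16 fell. Many ER chaperone genes are known to carry the ER stress response element, to which NF-Y and ATF6 bind. It was searched here as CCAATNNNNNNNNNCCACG on both strands of the window from 250 bases before to 50 bases after each start site, in RefSeq promoters of GRCm38.p6. The motif was chosen after the fold changes had been seen, and it contains the CCAAT box. The sites are shown because they are rare: the element was present in 7 of the 21 genes of the list with a window (33.3%). It was present in 0.137% of 27025 genes. Capitals mark the CCAAT and CCACG blocks, or CGTGG and ATTGG where the element lies on the other strand.
Hspa5: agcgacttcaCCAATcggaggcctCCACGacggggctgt
Hsp90b1: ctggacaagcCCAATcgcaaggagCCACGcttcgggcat
Pdia6: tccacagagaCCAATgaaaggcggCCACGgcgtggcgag
Calr: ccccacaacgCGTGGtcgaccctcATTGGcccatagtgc
Canx: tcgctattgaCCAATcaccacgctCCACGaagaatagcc
Creld2: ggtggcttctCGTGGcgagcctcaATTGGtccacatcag
Dnajc3: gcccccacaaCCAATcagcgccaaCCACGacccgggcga
The windows were chr2:34771840-34772139 for Hspa5 (plus strand), chr10:86705395-86705694 for Hsp90b1 (minus), chr12:17266339-17266638 for Pdia6 (plus), chr8:84846882-84847181 for Calr (minus), chr11:50325624-50325923 for Canx (minus), chr15:88819396-88819695 for Creld2 (plus) and chr14:118937682-118937981 for Dnajc3 (plus). Of the 13 genes of the list with a window that fell, 6 held the element, and of the 8 that were not called 1 did, Dnajc3. The others not called were Atf4, Ddit3, Xbp1, Herpud1, Sec61b, Ssr1 and Dnajb9, most of which are not chaperones. A match is a run of letters and not a site shown to be bound.

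Hspa5, the ER chaperone BiP, ran from 853 to 2229 CPM with a median of 1510.0 CPM in Control and from 562 to 970.4 CPM with a median of 659.7 CPM in Deficient libraries. The highest Deficient library reached the range of the lower Control libraries. It fell by 0.998 ± 0.17 on the log2 scale (SE, edgeR adjusted p = 0.0124). Hsp90b1, the ER member of the HSP90 family, went from a mean of 1624 ± 606 CPM (SD, n = 6) to 784 ± 221 CPM (SD, n = 6). The protein disulfide isomerase Pdia6 fell by 1.24, the lectin chaperone Calr by 1.10 and the ATF6 target Creld2 by 1.12 on the log2 scale. Sdf2l1, a cofactor of BiP, showed the largest change of the list at -1.61 ± 0.25 (SE, edgeR adjusted p = 0.00966). Canx, a membrane-bound lectin chaperone, fell by 0.42 and lost its call without the 3 libraries (edgeR adjusted p = 0.0628). Dnajc3, with the element but no call, was at a mean of 356 ± 96.8 CPM (SD, n = 6) in Control and 292 ± 56.1 CPM (SD, n = 6) in Deficient libraries. In 6 of 23 members the groups did not overlap, among them Hyou1 (269 to 569.6 CPM against 109.9 to 197 CPM).

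Genes of mitosis were low in most Deficient libraries. Of 26 tested members, 6 fell and 0 rose, and 26 had a negative log2 fold change, with a median of -2.56. Mki67, the proliferation marker Ki-67, ran from 4.096 to 153 CPM with a median of 39.2 CPM in Control and from 0.539 to 47.0 CPM with a median of 1.02 CPM in Deficient libraries. The 47.0 CPM belonged to Deficient ZT05 replicate 3, a Cyp11a1-high library, and the next highest Deficient library was at 2.57 CPM. Its log2 fold change was -3.80 ± 1.07 (SE, edgeR adjusted p = 0.0479) with all 12 libraries and -3.24 (edgeR adjusted p = 0.00641) without the 3. Without those libraries the median of the list was -1.93. With 1 library left out between 0 and 26 mitosis genes fell, the 26 without Control ZT05 replicate 1. The fits with 0 included those without Control ZT05 replicate 3, without Control ZT17 replicate 1, 2 or 3, and without Deficient ZT05 replicate 1 or 2.

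The promoters of many mitosis genes hold the cell cycle genes homology region (CHR), through which the DREAM and MuvB complexes act. It was searched as TTTGAA on both strands of the same windows, and 16 of 21 mitosis genes with a window held it (76.2%), against 20.2% of all genes and 14.9% of all genes tested. Of these 16 genes only 4 were called lower. The others held the element without a call, among them Aurka and Plk1 (edgeR adjusted p = 0.0861 and 0.0962). The sites of the 4 genes that fell are shown, with the element in capitals (TTCAAA on the other strand).
Cdk1: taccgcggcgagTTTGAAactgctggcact
Mki67: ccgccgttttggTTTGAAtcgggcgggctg
Prc1: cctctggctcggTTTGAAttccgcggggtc
Top2a: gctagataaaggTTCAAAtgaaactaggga
Their windows were chr10:69352863-69353162 (Cdk1, minus strand), chr7:135716330-135716629 (Mki67, minus), chr7:80294201-80294500 (Prc1, plus) and chr11:99024140-99024439 (Top2a, minus). Cdk1, the kinase that drives entry into mitosis, fell from a median of 14.6 CPM to one of 2.12 CPM (log2 fold change -2.55). Prc1, a spindle midzone protein, fell by 3.53 and Top2a, the topoisomerase of dividing cells, by 2.96 on the log2 scale. Birc5, the survivin subunit of the chromosomal passenger complex, fell by 3.61 with all 12 libraries and was not called without the 3 (edgeR adjusted p = 0.0586). Of 27 DNA replication genes, 6 fell and 0 rose (3 without the 3 libraries, and from 1 to 16 with 1 library left out, the 16 without Control ZT05 replicate 1), led by the thymidine kinase Tk1 at -3.15. With all 12 libraries edgeR called 1 of 17 G1 cyclins and CDK inhibitors, the cyclin Ccne1, at 0.706 to 6.97 CPM in Control and 0 to 1.43 CPM in Deficient libraries. Of that list 2 fell without the 3 libraries, 4 in DESeq2, 6 in limma voom and 0 to 6 with 1 library left out (6 without Control ZT05 replicate 1). Summed mitosis transcripts ran from 67.4 to 1225 CPM in Control and from 37.8 to 388 CPM in Deficient libraries, and the highest sum of each treatment was in a Cyp11a1-high library.

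**Figure D3:**
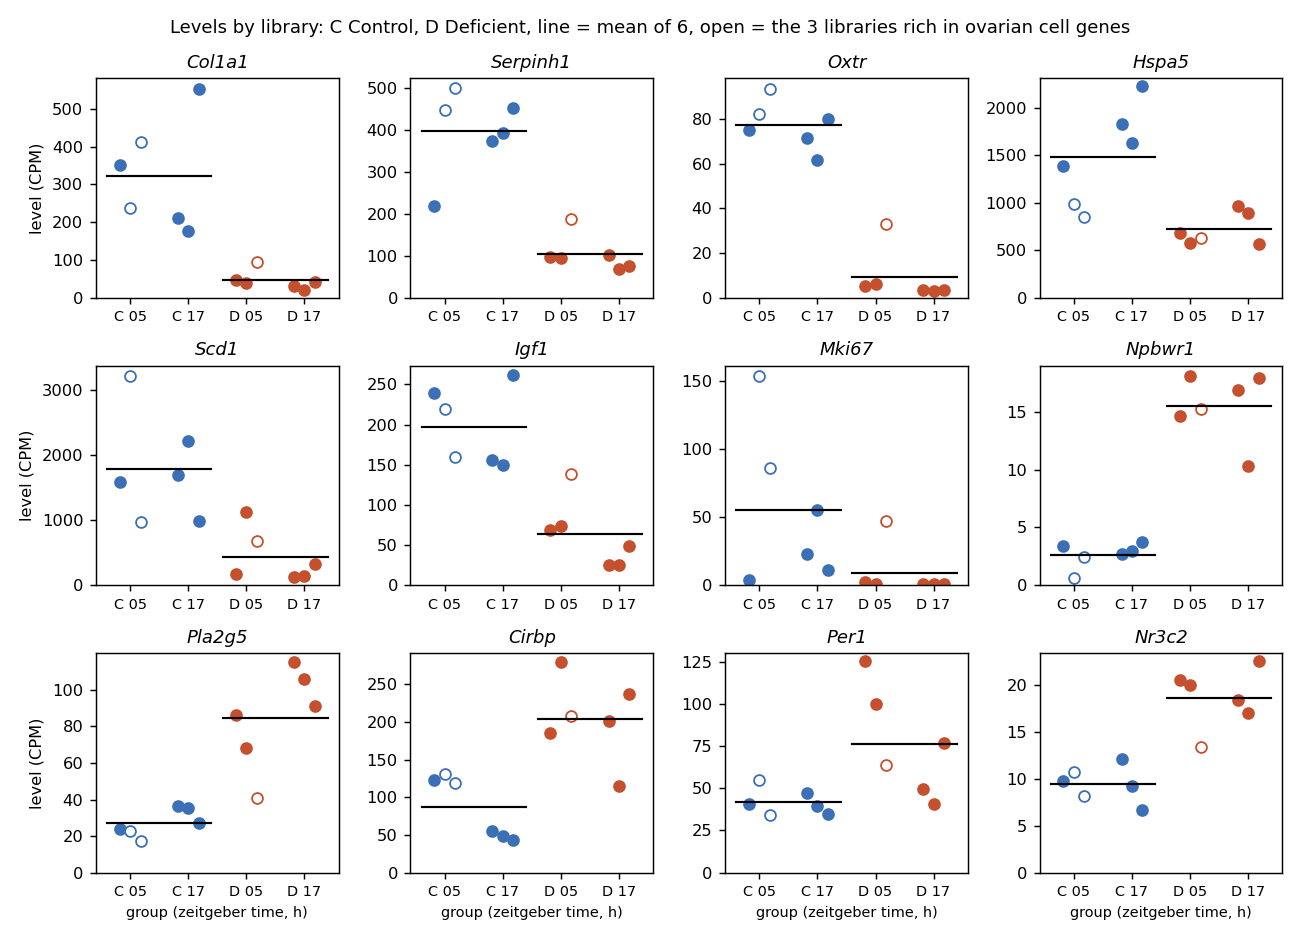
Levels of 12 genes (CPM, linear axes from 0) in each library, by treatment (C Control, D Deficient) and zeitgeber time in h, with lines at the mean of 6 and open circles for the 3 Cyp11a1-high libraries. Col1a1 and Oxtr show no overlap between treatments, and the single high Deficient value of Mki67 (47.0 CPM) is Deficient ZT05 replicate 3.

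Enzymes that build fatty acids were lower in Deficient libraries. Of 17 tested, 7 fell and 0 rose, with a median of -0.88, and 0 fell without Deficient ZT17 replicate 1. Scd1, which desaturates stearate, ran from 967 to 3216 CPM with a median of 1640.3 CPM in Control and from 128 to 1116 CPM with a median of 243 CPM in Deficient libraries. Its log2 fold change was -2.30 ± 0.49 (SE, edgeR adjusted p = 0.0212). Fasn, the fatty acid synthase, had a Control median of 588 CPM and a Deficient median of 172 CPM, and the elongase Elovl6 fell by 2.17 on the log2 scale. Pnpla3, a lipid droplet protein that falls in fasting, went from a median of 16.4 CPM to one of 1.13 CPM (log2 fold change -2.97). Thrsp, an activator of lipid synthesis, lost its call without the 3 libraries (edgeR adjusted p = 0.0538). In that fit 8 members fell and 1 rose, the desaturase Fads2 at 0.59 (edgeR adjusted p = 0.034).

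Lipid genes are also abundant in fat. Of 19 tested adipocyte markers 5 fell and 0 rose (0 fell without Deficient ZT17 replicate 1 and 0 without Deficient ZT17 replicate 2), and 4 of those 5 are also lipid-synthesis genes or their regulator Pparg. The fifth was the adipocyte hormone leptin (Lep), which ran from 7.87 to 51.5 CPM in Control and from 0.135 to 20.6 CPM in Deficient libraries, a log2 fold change of -3.24 ± 0.67 (SE, edgeR adjusted p = 0.0205). The adipocyte hormone Adipoq was not called, at 101 to 406 CPM in Control and 12.3 to 663 CPM in Deficient libraries. Summed adipocyte markers ran from 3461 to 11077 CPM and from 708 to 12496 CPM. The part of adhering fat in the lipid results was not tested. Of 20 lipid storage and fat burning genes 3 fell, including the lipid droplet coat Plin2 (-0.78), and 1 rose, the mitochondrial coactivator Ppargc1a (1.02). Of 27 genes of cholesterol synthesis and uptake 0 rose and 8 fell, among them the synthesis enzymes Idi1 (-1.29), Cyp51 (-1.28) and Mvd (-1.01). None of the list fell without Control ZT17 replicate 3, and none without Deficient ZT05 replicate 1. Without the 3 libraries 4 fell, and Idi1 and Cyp51 were not called (edgeR adjusted p = 0.102 and 0.179).

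Hormone receptors and local growth factors changed in both directions. Oxtr, the oxytocin receptor, is made by luteal cells and by smooth muscle and epithelium of the reproductive tract. It ran from 61.6 to 93.5 CPM with a median of 77.4 CPM in Control libraries and from 2.77 to 32.9 CPM with a median of 4.42 CPM in Deficient libraries. The groups did not overlap, and 5 of the 6 Deficient libraries lay at or below 6.11 CPM, the sixth being the Cyp11a1-high one. Its log2 fold change was -3.48 ± 0.43 (SE, edgeR adjusted p = 0.006), and -4.09 (edgeR adjusted p = 6.93e-07) without the 3 libraries. With all 12 libraries it was 1 of 19 luteal markers called in edgeR. Of that list 5 fell without the 3 libraries, 1 to 7 with 1 library left out (7 without Deficient ZT05 replicate 3), 5 in DESeq2 and 11 in limma voom.

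Igf1, the growth factor that links nutrition to tissue growth, ran from 150.0 to 261 CPM in Control and from 24.8 to 138 CPM in Deficient libraries without overlap, a log2 fold change of -1.83 ± 0.26 (SE, edgeR adjusted p = 0.00788). Its receptor Igf1r moved the other way, from a mean of 172 ± 18.4 CPM (SD, n = 6) to 252 ± 65.9 CPM (SD, n = 6), a log2 fold change of 0.52. Pappa (-1.22), a protease that frees IGF from its binding proteins, and Igfbp7 (-1.17) also fell. With Igf1 and Igf1r these were the 4 called of 22 genes of insulin and IGF signalling, where 10.4% of all genes were called. With 1 library left out Pappa lost its call in 9 of 12 fits and Igfbp7 in 10, while Igf1 and Igf1r kept theirs in every fit. Among 22 nuclear hormone receptors 4 rose: the retinoic acid receptor Rarb (1.15), the mineralocorticoid receptor Nr3c2 (0.98), the thyroid hormone receptor Thra (0.51) and the vitamin D receptor Vdr (0.50), the last not called without the 3 libraries (edgeR adjusted p = 0.132). The fat cell regulator Pparg fell by 1.31. The estrogen receptor Esr1 was not called, at medians of 526 CPM in Control and 520.2 CPM in Deficient libraries. The progesterone receptor Pgr was not called with all 12 libraries (log2 fold change -0.44, edgeR adjusted p = 0.582) but was lower without the 3 (-0.97, edgeR adjusted p = 0.0469).

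Of 30 genes of the TGF-beta family and its regulators, the BMP receptor Bmpr1b (0.65) and the ligand Tgfb3 (0.42) rose and the activin antagonist Fstl3 fell by 0.90. These 3 calls are near the share of all genes called (10.4%), and with 1 library left out the list held between 0 (in 6 of the 12 fits) and 10 calls (without Control ZT05 replicate 1). Of 13 genes of gonadotropin signalling 1 was called, the phosphodiesterase Pde4d, which breaks down cyclic AMP, at 8.09 to 13.3 CPM in Control and 13.3 to 40.2 CPM in Deficient libraries (log2 fold change 0.9997). Hsd11b2, which inactivates glucocorticoid, fell by 3.02 on the log2 scale, from a median of 12.1 CPM to one of 1.59 CPM.

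Genes of ovarian cells themselves are given as levels, because most libraries lay at or near 0 and 2 of the 3 Cyp11a1-high libraries are Control. Of 22 steroid synthesis genes 0 were called in edgeR, with all 12 libraries or without the 3. In edgeR 2 rose without the 4 libraries over 100 CPM of Cyp11a1, 2 rose and 3 fell without Control ZT05 replicate 1, and 2 fell without Deficient ZT05 replicate 3. With all 12, 1 was higher and 3 were lower at an unadjusted p under 0.05, DESeq2 called 1 higher and 2 lower, and limma voom 2 higher and 5 lower. In the Cyp11a1-high libraries, Control ZT05 replicates 2 and 3 against Deficient ZT05 replicate 3, Star, the cholesterol transporter, was at 2161 and 1735 CPM against 944 CPM. Lhcgr, the luteinizing hormone receptor, was at 120 and 205 CPM against 20.2 CPM. Akr1c18, which degrades progesterone, was at 2645 and 5271 CPM against 2743 CPM, and the follicle gene Inha at 1636 and 310.3 CPM against 332 CPM. With 1 Deficient library of this kind, there is no replicate check of these differences. Lists of granulosa, cumulus and oocyte genes held 2 called members of 18, 2 of 14 and 1 of 23, where 10.4% of all genes were called. In edgeR with all 12 libraries the first 2 lists lay near that share and the oocyte list below it. DESeq2, which called 3710 of all 18637 genes, called 7 granulosa and 5 cumulus genes lower, and 1 oocyte gene higher and 2 lower. For limma voom, with 7380 of all genes called, these numbers were 4, 9, 1 and 1. Without the 4 libraries over 100 CPM of Cyp11a1 medians went from -2.37 to 1.19 (granulosa), -0.99 to -0.71 (cumulus) and -2.22 to 0.54 (oocyte). The members called in edgeR with all 12 were Grem1 (-2.25) and Kctd14 (-0.87), Has2 (-2.41) and Adamts1 (-2.24), and Oog1 (0.81). Grem1 and Has2 lost their calls without the 3 libraries (edgeR adjusted p = 0.1 and 0.0575). Adamts1, a protease of ovulation, was at 306 CPM in Control ZT05 replicate 3 and at 19.9 to 30.5 CPM in the other Control libraries, against 9.68 to 13.9 CPM in all Deficient libraries. Oog1 was at 9.73 to 35.3 CPM in all 12 libraries, unlike Gdf9.

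Smooth muscle genes were lower in Deficient libraries. Of 17 smooth muscle and pericyte markers 10 fell and 0 rose, the same numbers without the 3 libraries, with a median of -0.90. Without Deficient ZT05 replicate 1, 1 fell. Acta2, smooth muscle actin, ran from 515 to 961 CPM in Control and from 226 to 663 CPM in Deficient libraries (log2 fold change -0.90 ± 0.21, SE, edgeR adjusted p = 0.0305). Actg2, the enteric and reproductive tract isoform, fell by 1.65, the calponin Cnn1 by 1.31 and Lmod1, an actin nucleator, by 1.28 on the log2 scale. The summed level of the list ran from 1923 to 4724 CPM and from 1458 to 2786 CPM. Of 19 endothelial markers 1 was called, the diaphragm protein Plvap (-1.16), and the cadherin Cdh5 was not. Of this list 17 had a negative log2 fold change, and 4 fell without the 3 libraries, 8 in DESeq2, 14 in limma voom and 0 to 11 with 1 library left out (11 without Control ZT05 replicate 1). Of the 15 oviduct ciliated cell markers tested, 0 were called with all 12 libraries in edgeR (1 at an unadjusted p under 0.05, 0 by DESeq2, 14 higher by limma voom), and 15 had a positive log2 fold change with a median of 0.65. Without Control ZT05 replicate 1, 13 rose with a median of 1.19, and without the 3 Cyp11a1-high libraries 1 rose.

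Macrophage and interferon-response genes were lower in Deficient libraries. Of 18 macrophage and monocyte markers 9 fell and 0 rose, also without the 3 libraries, with a median of -0.78, and 2 fell without Deficient ZT17 replicate 1. Mrc1, the mannose receptor of tissue macrophages, ran from 19.6 to 35.4 CPM in Control and from 5.46 to 17.03 CPM in Deficient libraries without overlap (log2 fold change -1.39 ± 0.25, SE, edgeR adjusted p = 0.0134). The complement gene C1qb fell by 1.02 and the monocyte chemokine receptor Ccr2 by 1.341. Summed macrophage markers ran from 372 to 616 CPM and from 236 to 515 CPM. Of the other immune cell lists, 2 of 11 T and NK cell markers fell, and edgeR called 0 of 12 B and plasma cell markers (1 higher and 1 lower at an unadjusted p under 0.05, and the same numbers called by DESeq2 and by limma voom) and 0 of 6 neutrophil markers (1 lower at an unadjusted p under 0.05, 0 called by DESeq2 and 1 by limma voom). Of 23 interferon-response genes 9 fell and 0 rose, led by Oas3 (-2.16), Oas2 (-1.56) and Mx1 (-1.36), and 14 fell without the 3 libraries but 1 without Deficient ZT17 replicate 1. Of 7 tested erythroid genes 4 fell: the globins Hbb-bs (-2.65), Hba-a1 (-2.68) and Hbb-bt (-3.29) and the heme enzyme Alas2 (-2.04). In fits with 1 library left out, 0 fell without Control ZT17 replicate 1 or 3 and 0 without Deficient ZT05 replicate 1 or 2. Hba-a1, Hbb-bs and Hbb-bt have near-identical copies, so their separate levels are uncertain.

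Genes that respond to glucocorticoid rose in part. Of 20 tested, 4 rose and 0 fell: Zbtb16 (1.30), Tsc22d3 (0.99), Klf15 (0.89) and the clock gene Per1 (0.81). With 1 library left out, 0 to 5 rose. Tsc22d3, the leucine zipper protein GILZ, ran from 48.3 to 156 CPM in Control and from 105 to 307 CPM in Deficient libraries. Fkbp5, another target, was not called and changed sign, with a log2 fold change of -1.20 (edgeR adjusted p = 0.286) with all 12 libraries and 0.36 (edgeR adjusted p = 0.601) without the 3. Its level was 433, 512 and 208 CPM in the 3 Cyp11a1-high libraries and 16.0 to 69.7 CPM in the others. Without the 3 libraries 5 members rose and 1 fell, the iron-binding Lcn2 at -0.74 (edgeR adjusted p = 0.0201).

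Clock genes were compared over both times. Of 19 tested, 4 rose, among them Cry2 (0.88), Per1 (0.81) and Cry1 (0.70), and 1 fell, the repressor Nfil3 (-1.28). With 1 library left out, 0 to 7 rose. Cry2, a repressor of the core loop, ran from 62.5 to 156 CPM in Control and from 174 to 254 CPM in Deficient libraries without overlap. Without the 3 libraries 2 rose and 1 fell, and Cry1 was not called (edgeR adjusted p = 0.102). Cirbp, a cold-inducible RNA-binding protein, was at 118 to 130.3 CPM in Control at ZT05 and at 43.2 to 55.7 CPM in Control at ZT17, against 115 to 279 CPM over all Deficient libraries. The log2 change was 1.38 ± 0.17 (SE, edgeR adjusted p = 0.00617). Of 7 cold-inducible and temperature-linked genes it was the 1 that rose, and 1 fell, the constitutive chaperone Hspa8 (-0.72).

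The genes with the largest changes at a mean of at least 8 CPM included several with a known role in signalling or metabolism. Npbwr1 (chr1:5913707-5917398), a receptor for neuropeptides B and W, ran from 0.588 to 3.75 CPM in Control and from 10.3 to 18.1 CPM in Deficient libraries, and its groups did not overlap. Its log2 fold change of 2.58 ± 0.35 (SE, edgeR adjusted p = 0.00729) was the largest rise named by that rule. Cyp2a5, a cytochrome P450 that hydroxylates xenobiotics, went from 19.5 to 193 CPM in Control to 209.9 to 606 CPM in Deficient libraries (log2 fold change 2.04). Pla2g5, a secreted phospholipase, went from 17.4 to 36.2 CPM to 41.1 to 115 CPM (log2 fold change 1.64 ± 0.18, SE, edgeR adjusted p = 0.00563). Cyp2a5 and Pla2g5 did not overlap between treatments, as 2.06% of all genes did with Deficient above. The other 9 rises were Ptprr (1.73), Sult1d1 (1.67), Caly (1.64), Serpinb12 (1.63), Tmem132c (1.62), the WNT deacylase Notum (1.599), Nebl (1.58), the forkhead factor Foxq1 (1.56) and Ces1b (1.51). All 12 were also called without the 3 libraries. With 1 library left out, Cyp2a5 lost its call in 7 of 12 fits, and Ptprr, Caly, Notum, Nebl and Ces1b in 8. Sult1d1 and Serpinb12 lost theirs in 9 and Tmem132c in 1, while Npbwr1, Pla2g5 and Foxq1 kept theirs in every fit.

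The largest falls were Clca1 (-4.85), the water channel Aqp8 (-4.05), Mki67, Prc1, Oxtr, Lep, Hsd11b2, the arginase Arg1 (-3.00), Pnpla3, Top2a, Col1a1 and Col15a1. Clca1, which encodes a secreted protein of mucous epithelia, was at 105 CPM in Control ZT17 replicate 2 and at 0.0452 to 8.47 CPM in the other Control libraries, so its mean rests on 1 library. Aqp8 ran from 1.80 to 159 CPM in Control and from 0.739 to 12.7 CPM in Deficient libraries, and the groups overlapped. All 12 falls were also called without the 3 libraries. With 1 library left out, Clca1, Mki67, Prc1 and Top2a lost their calls in 10 of 12 fits. Aqp8 and Hsd11b2 lost theirs in 9, Arg1 in 8, Lep in 2 and Pnpla3 in 1, while Oxtr, Col1a1 and Col15a1 kept theirs in every fit.

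Collection time was tested within each treatment and as a difference between responses. The response at ZT17 did not differ from that at ZT05 for any gene called in edgeR's quasi-likelihood test (0 of 18637, with 1322 at an unadjusted p under 0.05, 77 called by DESeq2 and 1019 by limma voom). Within the fit of all libraries labelled ovary, the contrast at ZT05 alone gave 0 calls for the response in edgeR (3333 at an unadjusted p under 0.05). The contrast at ZT17 alone gave 445. All 3 Cyp11a1-high libraries are in the ZT05 groups, and the spread used in both contrasts was estimated with them included. In Control libraries edgeR called 0 genes between the times (3552 at an unadjusted p under 0.05, 677 called by DESeq2, 8392 by limma voom). In Deficient libraries it called 1 (0.00537%; 2979 at an unadjusted p under 0.05, 733 called by DESeq2, 175 by limma voom). This was Coq10b, a coenzyme Q chaperone, at 33.5, 39.5 and 27.6 CPM at ZT05 and 10.4, 11.3 and 9.68 CPM at ZT17, a log2 difference of -1.68 ± 0.17 (SE, edgeR adjusted p = 0.0179). Without the 3 Cyp11a1-high libraries 33 genes were higher (0.168%) and 11 lower (0.0561%) at ZT17 in Deficient mice, together 0.224% of those tested.

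Among these 44 were clock genes. Npas2, a partner of the activator BMAL1, was at 3.25 and 5.10 CPM in the first 2 Deficient libraries at ZT05 and at 31.2, 25.1 and 26.1 CPM at ZT17, a log2 difference of 2.72 ± 0.37 (SE, edgeR adjusted p = 0.0296 without the 3 libraries). Per2, a repressor of the core loop, was at 140.0 and 144 CPM at ZT05 and at 59.4, 37.7 and 63.2 CPM at ZT17 in the same libraries (log2 difference -1.42, edgeR adjusted p = 0.0487). In Control libraries Per2 was at 59.4, 33.1 and 23.2 CPM at ZT05 and at 90.1, 59.4 and 67.8 CPM at ZT17. Replicates 2 and 3 at ZT05 are Cyp11a1-high, and a library of that kind was left out of the Deficient values. Without them Control ZT05 is left with 59.4 CPM, level with the lowest at ZT17, so the opposite order rests mainly on those replicates. The difference between responses was not called. The other genes named by the rule were Oas2 (2.04), Iqch (1.85) and Oas1g (1.63), which were higher at ZT17, and Coq10b (-1.81), the folate enzyme Mthfd1l (-1.61) and the angiogenic factor Pgf (-1.46), which were lower.

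The response was then set against that of the uterus, a hormone target of the ovary, in the same 12 mice. The difference between the responses passed the edgeR test in 2560 genes above 0 (12.9%) and 2299 below 0 (11.6%) of 19772. The 4 named differences above 0 were genes that fell in the uterus. Ltf, lactoferrin, an estrogen-induced product of the uterine epithelium, went from a mean of 7464 ± 4352 CPM (SD, n = 6) to 325 ± 499 CPM (SD, n = 6) in the uterus, while its response in the libraries labelled ovary was 0.51 (edgeR adjusted p = 0.512). The difference was 6.10 ± 0.86 (SE, edgeR adjusted p = 0.00182). Aoc1 (8.41), Aqp4 (6.13) and Lcn2 (6.07) also differed in this direction. Below 0, the differences were Cemip (-5.77), Slc6a2 (-4.88), Mki67 (-4.83) and A2ml1 (-4.65). Mki67 in the uterus was at 85.6 ± 67.9 CPM (SD, n = 6) in Control and 88.6 ± 26.0 CPM (SD, n = 6) in Deficient libraries. These 8 differences were also called without the 3 mice of the Cyp11a1-high libraries.

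Several genes described above responded differently from the uterus. Scd1 differed by -2.87 ± 0.51 (SE, edgeR adjusted p = 0.00351) and Fasn by -1.56, with uterine responses of 0.26 and -0.16, and Igf1r, which rose by 1.48 in the uterus, by -0.96. These 3 kept their calls without the 3 mice. Col15a1 (-2.38) and Igf1 (-1.43) did not (edgeR adjusted p = 0.0619 and 0.121). Hspa5 fell further in the uterus (difference 0.68), and this too was lost without the 3 mice (edgeR adjusted p = 0.0817). For Col1a1, Oxtr and Cirbp the difference was not called (edgeR adjusted p = 0.129, 0.0699 and 0.245), with uterine responses of -1.81, -2.27 and 1.02.

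Against the adrenal gland of the same mice, the other steroid-making organ, the number of differences called depended on the test and on single mice. In edgeR 8 genes were above 0 (0.0407%) and 16 below 0 (0.0814%) of 19659, DESeq2 called 725 and limma voom 5685, and with 1 mouse left out edgeR called 0 to 1237 (1237 without Control ZT05 replicate 1). Oxtr differed by -2.90 ± 0.40 (SE, edgeR adjusted p = 0.0211), with an adrenal mean of 167 ± 29.9 CPM (SD, n = 6) in Control and 94.0 ± 20.8 CPM (SD, n = 6) in Deficient libraries. The other named differences were Pla1a (-2.92), Nnat (-2.65) and P2ry14 (-2.23) below 0, and Cyp2f2 (2.87), Acot11 (1.93), Pla2g5 (1.83) and the growth factor Tgfa (1.30) above 0. Without the 3 mice 1 gene was called, Oxtr (edgeR adjusted p = 0.0241). Col1a1 had a log2 fold change of -1.30 in the adrenal gland, and the difference of -1.57 was not called (edgeR adjusted p = 0.127).

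**Figure D4:**
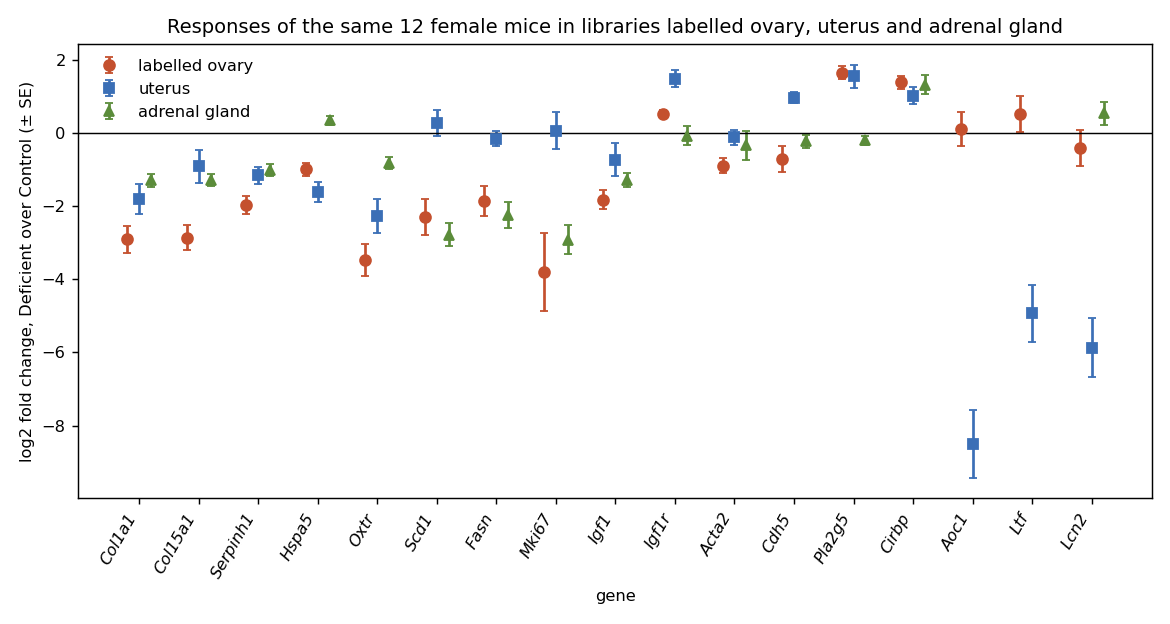
Log2 fold change (Deficient minus Control, with standard error) of named genes in the libraries labelled ovary, the uterus and the adrenal gland of the same 12 mice. Aoc1, Ltf and Lcn2 lie lowest in the uterus (Ltf at -4.93), and Oxtr lies at -3.48 in the libraries labelled ovary, -2.27 in the uterus and -0.83 in the adrenal gland.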

How the data were processed

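Total RNA (TRIzol, 500 ng) went into stranded poly(A) libraries of the TruSeq kind, per the labels' protocols. The submitters' processing notes list FastQC 0.11.9, cutadapt 4.1, STAR 2.7.10a, DESeq2 1.34.0 and the GRCm38 (mm10) build. The counting tool and annotation were not given in the sources used here. The authors deposited raw read counts for 55487 genes, which were used as they stand. Gene positions are from GENCODE M21 and promoter sequences from RefSeq GRCm38.p6.

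The libraries labelled ovary had a fit of their own in edgeR 4.0.16 (R 4.3.3), with filterByExpr (minimum count 10, total 15), TMM scaling, 1 coefficient per treatment and time, and quasi-likelihood F tests of Deficient minus Control averaged over the times. P-values were adjusted by Benjamini-Hochberg over all genes tested and called under 0.05. They measure the spread between these mice. Organ differences were fitted on the libraries of the same 12 mice, with the mouse as a block from the animal numbers in the labels. The fits were tested on simulated counts with 1 mean profile for all libraries. Their spread was equal for all genes and lower than the common spread of these data. That test therefore cannot show how the fits behave with Cyp11a1-high libraries or when single libraries are left out.

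Genes are named by rule: the 12 largest called rises and falls above a mean level of 8 CPM (predicted genes skipped), a panel of ovarian genes, the 4 strongest called members of a list and any called member opposing its median, and the 4 largest called time and organ differences in each direction. A few others were named after their values were seen. The members and the 47 lists were chosen with earlier results of these data known. Alternatives were DESeq2's size factors, other low-count filters, DESeq2 1.42.0 and limma 3.58.1 voom with sample quality weights. The replicate number as a block, other models of time, and each library left out were also run. Wherever limma voom is named it had these weights, which give libraries with a larger spread less weight. Leaving out the 3 or 4 libraries rich in Cyp11a1, a covariate for ovarian cell genes and thinning to the lowest total were chosen after seeing the data. A second deposited table of scaled values was not used. A few genes are not reported here.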

Additional observations from a re-analysis of the deposited data

Results flagged for a closer look

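In 39 of 286 gene and treatment pairs, 1 of the 6 libraries lay far from the other 5 by Dixon's ratio of the gap to the whole range on log2 of CPM + 1. Chance gives about 1 in 20 for independent groups. These pairs share the same libraries and many of the genes were named for their change, so that rate is no test of the 39. Of the 39, 35 lay in the 3 Cyp11a1-high libraries and 28 in Deficient ZT05 replicate 3. In that library ovarian genes stood above the other Deficient libraries, at the CPM given: Fshr (12.3), Lhcgr (20.2), Star (944), Cyp11a1 (2620.4), Hsd3b1 (2574), Cyp17a1 (35.1), Akr1c18 (2743), Scarb1 (437), Fst (61.5), Gdf9 (47.7), Bmp15 (16.5), Zp3 (29.6), Foxl2 (28.2), Prlr (288), Ptgfr (362) and Nr5a1 (82.3). Genes of division and matrix and the oxytocin receptor stood above them too: Mki67 (47.0), Prc1 (20.1), Oxtr (32.9), Top2a (36.3), Col6a3 (77.4), Pcolce (126), Sparc (759), Birc5 (10.04) and Cdk1 (19.3). Nebl (30.8), Lcn2 (46.3) and Ppargc1a (12.6) lay below the other Deficient libraries. In Control ZT05 replicate 2, Hsd11b2 (75.5) and Cyp17a1 (331) were higher and Ppargc1a (4.796), Lcn2 (12.3), Ccnd1 (27.6) and Ovgp1 (1245) lower than in the other Control libraries. In the remaining pairs, Adamts1 was high in Control ZT05 replicate 3 at 306 CPM, Serpinh1 low in Control ZT05 replicate 1 at 218 CPM, Canx high in Control ZT17 replicate 3 at 737 CPM, Thrsp high in Deficient ZT05 replicate 2 at 160.3 CPM and Thra low in Deficient ZT05 replicate 1 at 109 CPM.

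Responses that differed from those of the uterus, by edgeR's test of the difference, were named for Cemip (log2 difference -5.77), Slc6a2 (-4.88), Mki67 (-4.83), A2ml1 (-4.65), Aoc1 (8.41), Aqp4 (6.13), Ltf (6.10) and Lcn2 (6.07). Against the adrenal gland they were Pla1a (-2.92), Oxtr (-2.90), Nnat (-2.65), P2ry14 (-2.23), Cyp2f2 (2.87), Acot11 (1.93), Pla2g5 (1.83) and Tgfa (1.30).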

How the results depend on the processing

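Directions of the named genes were steadier than their calls. Of 112 genes called with all libraries, 1 changed sign under the alternatives run, Cry1, at -0.064 in the contrast at ZT17 alone. Among uncalled genes, Pgr was at 0.13 in limma voom, 0.064 in the contrast at ZT05 alone and between -0.72 and 0.42 with 1 library left out. Esr1 was at -0.082 in the contrast at ZT17 alone, -0.28 and -0.30 without the 3 or 4 Cyp11a1-rich libraries, and between -0.10 and 0.58 with 1 left out. Fkbp5 was at 0.36 and 0.78 without the 3 or 4, Adipoq at 0.19 in the contrast at ZT05 alone, and Lcn2 between -0.68 and 0.047 with 1 left out.

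The 1942 called genes became 1216 with no low-count filter, 3710 in DESeq2, 7380 in limma voom with sample quality weights and 1052 with treatment alone. They became 0 in the contrast at ZT05 alone (3333 at an unadjusted p under 0.05) and 445 in the contrast at ZT17 alone. With 1 library left out the count ran from 349 to 4770. Without Control libraries it was 4770 (ZT05 replicate 1), 869 (ZT05 replicate 3), 939, 670 and 518 (ZT17 replicates 1, 2 and 3), and without Deficient libraries 643 and 760 (ZT05 replicates 1 and 2), 349, 908 and 712 (ZT17 replicates 1, 2 and 3). The other 2 leave-outs stayed within 1.5 times. The cause was not tested.

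The difference between the responses at the 2 times (0 called in edgeR, 1322 at an unadjusted p under 0.05) gave 77 in DESeq2, 1019 in limma voom and 0 to 15 with 1 library left out (15 without Control ZT05 replicate 1). The time difference in Control (0) gave 677 in DESeq2, 8392 in limma voom and 0 to 5006 with 1 left out (5006 without Control ZT05 replicate 1). In Deficient (1) it gave 4 with the stricter filter, 733 in DESeq2, 175 in limma voom, 44 without the 3 Cyp11a1-high libraries and 0 to 11 with 1 left out (11 without Control ZT05 replicate 2). The difference from the uterus ran from 2961 (without the mouse of Deficient ZT05 replicate 2) to 5888 with 1 mouse left out. The difference from the adrenal gland (24) gave 107 with no filter, 53 with the stricter filter, 725 in DESeq2, 5685 in limma voom, 178 with no mouse as a block, 1 without the 3 mice, and 0 to 1237 with 1 left out (1237 without Control ZT05 replicate 1, 0 without Control ZT05 replicate 3 and 5 other mice).

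Replicate numbers did not pair the libraries labelled ovary: residuals of same-numbered libraries correlated at -0.034 on average (range -0.463 to 0.576). With the replicate block, 1419 genes were called for the response and 0 for the time difference in Deficient libraries. Library totals, which did not overlap between treatments, limit what can be said of genes near the floor of 3 counts.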

Other observations

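Several lists outside the comparisons above also held called members, to be read against the 10.4% of all genes called. The ribosomal protein list lay below that share, and the WNT, angiogenesis and oviduct secretory lists lay close to it. Of 25 nuclear genes of mitochondrial oxidative phosphorylation 7 fell and 0 rose (5 fell without the 3 Cyp11a1-high libraries), with a median of -0.24, led by Ndufa1 (-0.68) of complex I and Cyc1 (-0.59), the cytochrome of complex III. Of 30 cytosolic ribosomal protein genes 1 rose, Rps27 (0.63), and the median was 0.08. Of 19 targets of ATF4, the factor of amino acid stress, 4 fell, led by the mitochondrial folate enzymes Mthfd2 (-1.16) and Aldh1l2 (-1.15), and 0 rose. Of 20 targets of FOXO factors and autophagy genes 3 rose, Txnip (0.77), Gabarapl1 (0.56) and Sesn1 (0.45).

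Of 23 angiogenesis genes 3 fell, Nrp1 (-1.27), Ednra (-1.20) and Vegfa (-0.43). Of 24 genes of WNT and R-spondin signalling the inhibitor Sfrp1 (-0.90) and the receptor Fzd2 (-0.88) fell and the ubiquitin ligase Rnf43 (0.78) rose. Of 14 oviduct secretory cell markers the tight junction gene Cldn4 rose by 1.43, from 9.62 to 18.6 CPM in Control to 17.95 to 62.0 CPM in Deficient libraries, and the secreted chaperone Clu fell by 0.73. Klk1, a kallikrein protease, ran from 12.3 to 38.4 CPM in Control and from 2.695 to 6.71 CPM in Deficient libraries without overlap, a log2 fold change of -2.82 ± 0.29 (SE, edgeR adjusted p = 0.0045). It was the thirteenth fall by size and was named after its values were seen.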
